A study of Caenorhabditis elegans with 32 samples.

Results

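Y68A4A.13, fbxa-192 (F57G4.8) and F57G4.6 are 3 C. elegans genes chosen by their large changes between csb-1 and wild-type worms on vehicle, and each was followed here through every array. They are 3 of 26433 genes on the array, read by 5 of 43314 tested probes. Y68A4A.13 has the probe A_12_P145995, fbxa-192 has A_12_P156745, A_12_P156746 and A_12_P108325, and F57G4.6 has A_12_P158127. The worms were csa-1(tm4539);csb-1(ok2335) double mutants, csb-1(ok2335) single mutants, csa-1(tm4539) single mutants and wild-type Bristol N2, each given nicotinamide riboside (NR) or water as vehicle. All were kept at 25 °C, NR was given at 500 µM from the L4 stage, and RNA of whole worms was taken at adult day 7. Each of the 8 groups has 4 arrays (32 in all), and 1 allele of each gene stands for its loss. The mutant strains had been backcrossed to N2. In whole-worm RNA, fewer cells of a type and less RNA per cell cannot be told apart.

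CSB is a SWI/SNF-type ATPase that acts where RNA polymerase II has stalled at DNA damage, and CSA is the substrate receptor of a CUL4-DDB1 ubiquitin ligase in the same transcription-coupled repair. Loss of either causes Cockayne syndrome in humans. NR is a precursor of NAD+. fbxa-192 belongs to a large nematode family of F-box proteins, a class that brings substrates to SCF ubiquitin ligases, whereas no role is given here for Y68A4A.13 or F57G4.6. In the gene table used here (RefSeq, WBcel235), Y68A4A.13 and fbxa-192 both lie on chromosome V, csb-1 lies on X and csa-1 on II. F57G4.6 is not in that table, and shares with fbxa-192 the name of the sequenced clone F57G4.

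Levels are Z-scores, the log2 intensity of a probe minus the mean of its array, divided by the array's standard deviation. A Z-score ranks a probe within its array and does not rank different probes against each other. Log2 changes are differences of mean Z-scores times 3.74, the mean standard deviation of log2 intensity over the arrays. The 75th percentile of intensity was 565 to 3883 and 46.9% to 78.4% of spots were well above background per array. Of 19 fixed markers of worm tissues, 14 were on the array, and 12 of these were above background on all 32 arrays. Each group was hybridised on a slide of its own, so slide and group cannot be told apart, and the labels do not say whether the arrays of a group came from separate cultures, so p-values may measure technical spread.

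The probes of the mutated genes were read first, since they bear on the labels. Of 7 probes for csb-1, only A_12_P159795 separated the strains. It gave Z-scores of -1.40 to -0.55 on the 16 double mutant and csb-1 arrays, against -0.33 to 0.06 on 15 of the 16 csa-1 and N2 arrays. In csb-1 NR worms it was above background on no array and at least 5.02-fold lower than in N2 NR worms (adjusted p = 0.0075, limma). The exception was the array labelled csa-1 NR replicate 4, at -1.22 and not above background, where the other csa-1 NR arrays had 0.00, -0.05 and -0.02. The csa-1 probe A_12_P118898 had -0.42, -0.36, -0.40 and -0.43 in double mutant NR worms, against 0.11, 0.19, 0.13 and 0.09 in csb-1 NR worms, a log2 change of -2.0 ± 0.42 (SE, adjusted p = 0.0061, limma). On csa-1 NR arrays it had -0.33, -0.26 and -0.29, and 0.21 on the array labelled replicate 4. On vehicle it ran from -0.63 to -0.28 in double mutant worms and from -0.16 to 0.10 in csb-1 worms, without overlap. It did not separate csa-1 from N2 worms on vehicle, with -0.36, -0.62, -0.01 and -0.14 in csa-1 worms and -0.20, -0.11, -0.44 and -0.00 in N2 worms. The array labelled csa-1 NR replicate 4 thus differed from the other csa-1 NR arrays on both probes, and results that touch it are given with all arrays and with this one left out ("array omitted"). Where these probes lie relative to the deleted parts is not given in the sources used here.

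**Figure D1:**
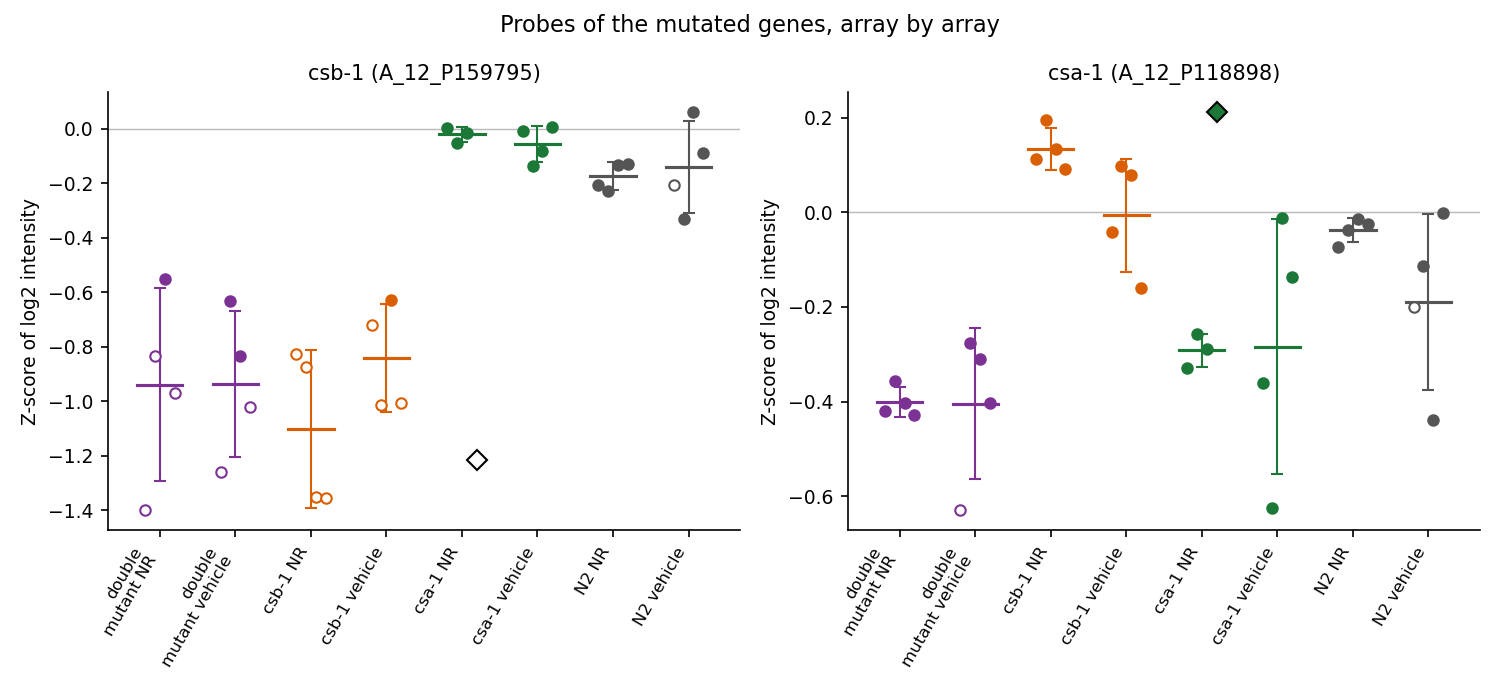
Z-score of log2 intensity (vertical axis) on each of the 32 arrays, by group, for a csb-1 probe (A_12_P159795) and the csa-1 probe (A_12_P118898), each point an array (open where not well above background), with the mean and SD of each group as lines and the array labelled csa-1 NR replicate 4 as a diamond outside its group's mean. That array lies at -1.22 for csb-1, among the csb-1 and double mutant arrays, and at 0.21 for csa-1, above the other csa-1 NR arrays.

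Y68A4A.13 was low on every array of the csb-1 and double mutant strains and high on every csa-1 and N2 array but 1. Its Z-scores were -0.75, -0.73, -0.70 and -0.88 in double mutant NR worms, and -0.27, -0.30, -0.48 and -0.38 in double mutant vehicle worms. The csb-1 worms had -0.45, -0.35, -0.32 and -0.44 on NR, and -0.27, -0.22, -0.21 and -0.29 on vehicle. Read as intensity, these 16 arrays ran from 19.9 to 181, and all but 1 (double mutant NR replicate 4) were well above background. The csa-1 worms had 1.46, 1.44 and 1.52 on NR, with -0.60 on the array labelled replicate 4, and 1.44, 1.54, 1.34 and 1.39 on vehicle. N2 worms had 1.44, 1.52, 1.49 and 1.46 on NR, and 1.64, 1.60, 1.45 and 1.58 on vehicle. Apart from that array, the csa-1 and N2 arrays had intensities of 3562 to 15542, and no csb-1 or double mutant array came near the lowest of them.

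The difference held on arrays that did not enter the choice of the gene. Between csb-1 NR and N2 NR worms the log2 change of Y68A4A.13 was -6.99 ± 0.93 (SE, n = 4 each, adjusted p = 7.1e-05, limma), about 127-fold in size. It was -8.38 between double mutant NR and N2 NR worms (adjusted p = 3.6e-06, limma). On the csa-1 background it was -6.67 between double mutant and csa-1 worms on vehicle (adjusted p = 2.5e-04, limma), and -6.43 between the same strains on NR (adjusted p = 4.6e-04, limma). With the array omitted the last became -8.37 ± 0.21 (adjusted p = 2.0e-20, limma), and the SE of the other comparisons fell to 0.19. The groups did not overlap in any of these comparisons, also with that array, and an exact two-sided permutation test gave p = 0.029, the smallest possible with 4 arrays against 4. For the csa-1 mutation by itself, on NR, the log2 change of Y68A4A.13 was -1.95 (adjusted p = 0.40, limma), and -0.01 with 3 csa-1 NR arrays (SE 0.21, adjusted p = 0.99).

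Within the low arrays the double mutant NR worms were lowest, by differences that did not pass with all arrays. Groups that did not overlap were common, at 11% to 23.4% of all probes in the comparisons counted below with all arrays. Double mutant NR worms were below csb-1 NR worms on every array, with a log2 change of -1.40 ± 0.93 (adjusted p = 0.53, limma), and it passed with the array omitted (SE 0.19, adjusted p = 5.3e-05, limma). The same worms were also below double mutant vehicle worms on every array, by -1.53 (adjusted p = 0.47, and 2.9e-05 with the array omitted, limma). At these intensities, 19.9 to 156 in the double mutant, the probe was within reach of its background, and double mutant NR replicate 4 was not above it. On vehicle, double mutant and csb-1 worms overlapped.

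**Figure D2:**
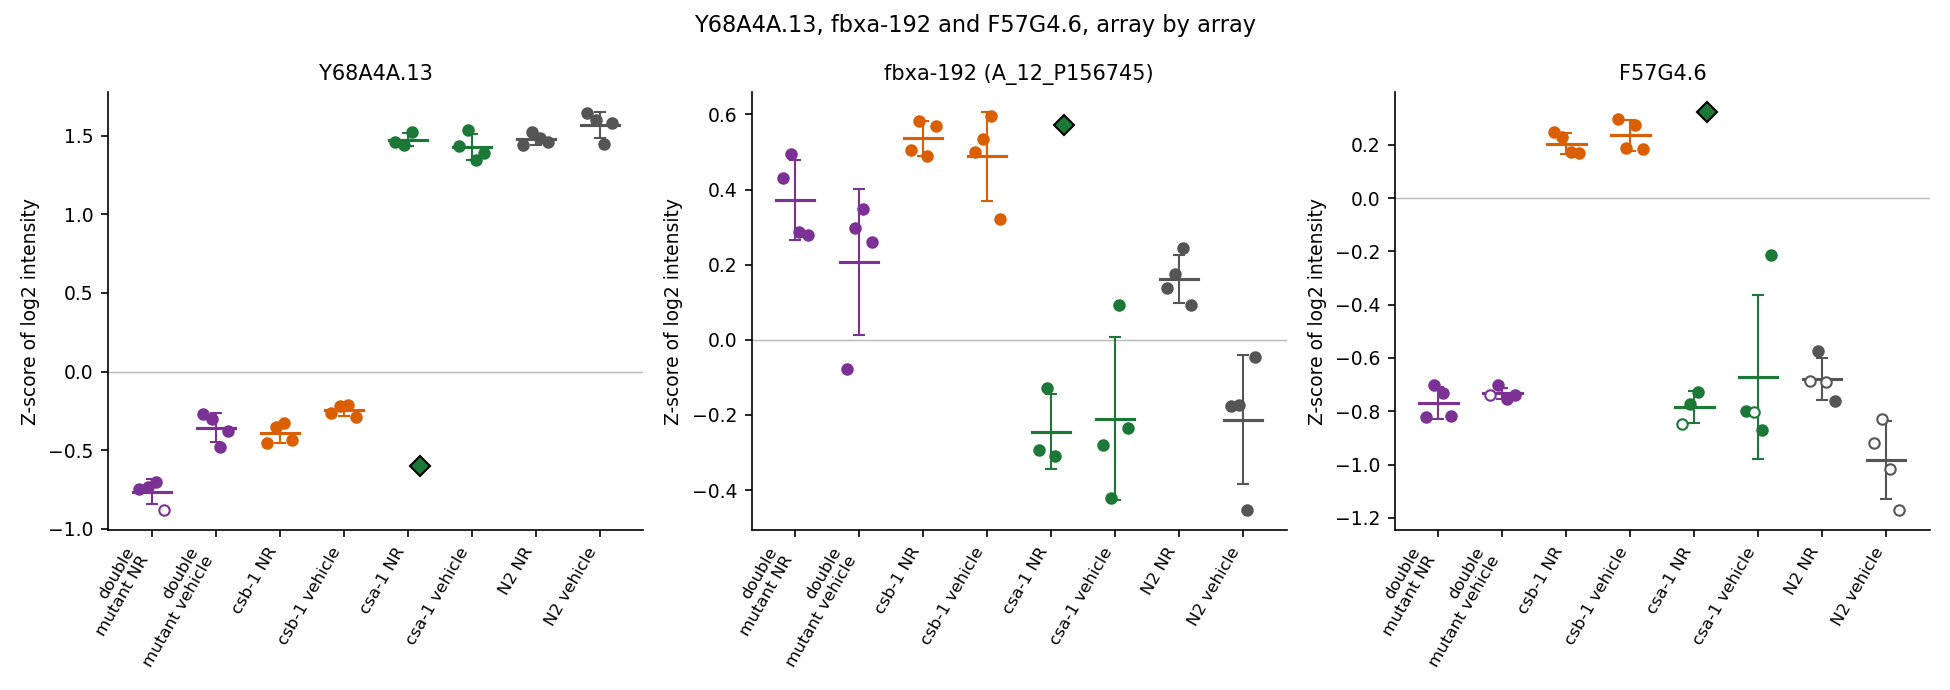
Z-score of log2 intensity (vertical axis) of Y68A4A.13, fbxa-192 (A_12_P156745) and F57G4.6 on each of the 32 arrays, by group, each point an array (open where not well above background), with the mean and SD of each group as lines and the array labelled csa-1 NR replicate 4 as a diamond outside its group's mean. Y68A4A.13 falls into a low set (-0.88 to -0.21) and a high set (1.34 to 1.64), and F57G4.6 is above 0 on the csb-1 arrays and on the array labelled csa-1 NR replicate 4, at 0.32.

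fbxa-192 was higher in csb-1 worms and, less clearly, in the double mutant, and its 3 probes moved together (r = 0.93 to 0.98 over 32 arrays, as a description). On its brightest probe, A_12_P156745, double mutant worms had 0.43, 0.49, 0.29 and 0.28 on NR, and -0.08, 0.30, 0.35 and 0.26 on vehicle. The csb-1 worms had 0.50, 0.58, 0.49 and 0.57 on NR, and 0.50, 0.54, 0.60 and 0.32 on vehicle. All 8 of these csb-1 values were above every csa-1 and N2 array other than the array labelled csa-1 NR replicate 4. The csa-1 worms had -0.29, -0.13 and -0.31 on NR, with 0.57 on the array labelled replicate 4, and -0.28, -0.42, 0.09 and -0.23 on vehicle. N2 worms had 0.14, 0.17, 0.24 and 0.09 on NR, and -0.18, -0.17, -0.45 and -0.05 on vehicle. The order of the group means on NR was csb-1 (0.54), double mutant (0.37), N2 (0.16) and then the 3 csa-1 arrays (-0.24), and neighbouring groups in this order overlapped only between csb-1 and the double mutant. A_12_P156746 gave the same order, with means of 0.34, 0.16, -0.03 and -0.42. Over NR and vehicle, this probe ran from -0.12 to 0.37 on the double mutant and csb-1 arrays and from -0.55 to 0.03 on the csa-1 and N2 arrays, apart from the array labelled csa-1 NR replicate 4, at 0.40. The dim probe A_12_P108325 ran from -0.89 to -0.27 and from -1.34 to -0.72 on the same sets of arrays, with -0.37 on that array. It was above background on every double mutant NR and csb-1 NR array, on 3 of 4 arrays of either strain on vehicle, on 1 N2 NR array and on no N2 vehicle or csa-1 vehicle array.

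Tests of fbxa-192 depended on the array labelled csa-1 NR replicate 4. Between csb-1 NR and N2 NR worms A_12_P156745 had a log2 change of 1.40 ± 0.50 (adjusted p = 0.13, limma), with an SE of 0.36 (adjusted p = 0.023) with the array omitted, and the groups did not overlap (exact permutation p = 0.029). A_12_P156746 had a log2 change of 1.38 ± 0.46 (adjusted p = 0.093, and 0.0059 with the array omitted, limma). The dim probe A_12_P108325, above background on 1 of 4 N2 NR arrays, had 1.49 ± 0.39 (adjusted p = 0.029, and 0.0039 with the array omitted, limma), and this call was lost when any 1 of the 8 arrays compared was left out (adjusted p up to 0.10). For the double mutant the change from N2 on NR was smaller, 0.79 on A_12_P156745, and did not pass (adjusted p = 0.49, and 0.33 with the array omitted, limma). Against csa-1 NR worms it was 1.54 (adjusted p = 0.074, limma), and 2.31 ± 0.39 with the array omitted (adjusted p = 0.0012, limma).

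On vehicle the same pair of strains could be compared without any of the arrays that chose the genes. Between double mutant and csa-1 vehicle worms A_12_P156745 had a log2 change of 1.56 ± 0.50 (adjusted p = 0.092, and 0.016 with the array omitted, limma). A_12_P156746 gave 1.52 (adjusted p = 0.071, and 0.0047 with the array omitted, limma). A_12_P108325 was above background on none of the 4 csa-1 vehicle arrays, and was at least 1.25-fold higher in the double mutant (adjusted p = 0.053, and 0.011 with the array omitted, limma). Here and below, such a bound sets the mean of the bright group against the dimmest signals that were well above background on the arrays of the dim group. For the csa-1 mutation by itself the sign was the opposite on NR. With 3 csa-1 arrays, A_12_P156746 was lower than in N2 by -1.45 on the log2 scale (adjusted p = 0.047, limma), and the value for A_12_P156745 was -1.52 (adjusted p = 0.12, limma). With all 4 csa-1 NR arrays these were -0.69 and -0.76, both with an adjusted p of 0.58 (limma).

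F57G4.6 was high in csb-1 single mutants and low in the double mutant, in csa-1 and in N2. Its Z-scores were -0.82, -0.70, -0.73 and -0.82 in double mutant NR worms, and -0.74, -0.70, -0.75 and -0.74 in double mutant vehicle worms. The csb-1 worms had 0.25, 0.23, 0.17 and 0.17 on NR, and 0.30, 0.19, 0.28 and 0.18 on vehicle. As intensity, the csb-1 arrays had 214 to 586 and the double mutant arrays 20.3 to 57.1. The csa-1 worms had -0.85, -0.77 and -0.73 on NR, with 0.32 on the array labelled replicate 4, and -0.80, -0.80, -0.87 and -0.21 on vehicle. N2 worms had -0.69, -0.57, -0.69 and -0.76 on NR and -0.92, -0.83, -1.02 and -1.17 on vehicle. No N2 vehicle array and 2 of 4 N2 NR arrays were above background, so that the N2 values lie at the limit of detection. The double mutant was above background on 4 of 4 NR and 3 of 4 vehicle arrays, and csa-1 on 3 of 4 in either group. The csa-1 NR arrays above background include the array labelled replicate 4. The csa-1 vehicle replicate 4 array, at -0.21 and an intensity of 100, lay between the high and the low arrays.

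Between csb-1 NR and N2 NR worms the log2 change of F57G4.6 was 3.30 ± 0.59 (SE, n = 4 each, adjusted p = 0.0018, limma, and 4.7e-07 with the array omitted). Between double mutant NR and csb-1 NR worms it was -3.64 ± 0.59 (adjusted p = 4.7e-04, limma, and 1.9e-07 with the array omitted). On vehicle the change between these strains was -3.63, on csb-1 arrays that the choice of the gene had used. Double mutant NR and N2 NR worms overlapped, with a change of -0.34 (adjusted p = 0.82, limma). The test of the interaction on NR, double mutant minus csa-1 minus csb-1 plus N2, gave -4.28 ± 0.83 (adjusted p = 0.0026, limma), and -3.24 ± 0.50 with the array omitted (adjusted p = 6.1e-04). For Y68A4A.13 the interaction was 0.55 ± 1.32 (adjusted p = 0.91) with that array and -1.39 ± 0.28 (adjusted p = 0.0063, limma) without it. For fbxa-192 it was 0.14 on A_12_P156745, 0.00 on A_12_P156746 and -0.92 on A_12_P108325. With the array omitted these became 0.91, 0.77 and -0.37, and none of the 3 probes passed either way.

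**Figure D3:**
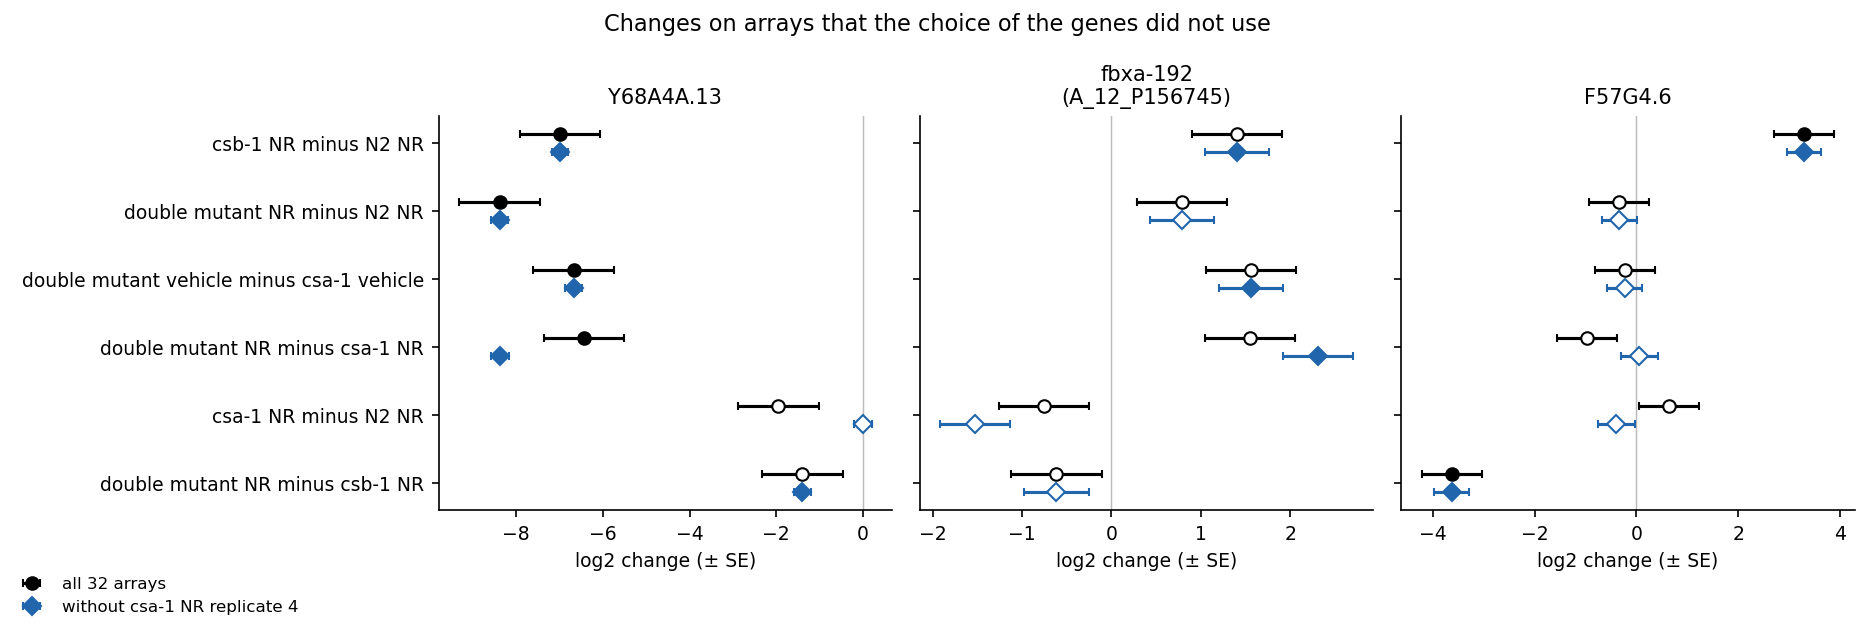
Log2 change with its SE (horizontal axis) of Y68A4A.13, fbxa-192 (A_12_P156745) and F57G4.6 in 6 comparisons that share no array with the choice of the genes, as black circles for all 32 arrays and blue diamonds with csa-1 NR replicate 4 omitted, filled where the adjusted p (limma) is at most 0.05. Y68A4A.13 fell in every comparison that adds the csb-1 mutation (-6.99 for csb-1 NR minus N2 NR), and F57G4.6 rose in csb-1 (3.30) and not in the double mutant (-0.34).

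Counted over the 5 probes, 3 passed an adjusted p of 0.05 between csb-1 NR and N2 NR worms (5 with the array omitted), where 4.04% of all probes passed (4.5% with the array omitted). The groups did not overlap for 5 of the 5, against 19.9% of all probes. Double mutant NR and N2 NR worms did not overlap for 4 (23.4% of all probes), double mutant and csa-1 vehicle worms for 2 (11%), and double mutant NR and csa-1 NR worms for 1 (18%), or for 4 with the array omitted (23.6%). Between double mutant NR and N2 NR worms 1 probe passed (1 with the array omitted), against 1.75% of probes (1.98%), and between double mutant and csa-1 vehicle worms 1 passed (4 with the array omitted), against 2.77% (3.17%). On NR, double mutant against csa-1 worms gave 1 probe that passed (3 with the array omitted), against 4.5% (2.75%). Double mutant against csb-1 worms on NR gave 1 (2 with the array omitted), against 3.21% (3.51%), and for the interaction 1 passed (2), against 4.97% (3.26%). Between csa-1 NR and N2 NR worms limma called 0 of the 5 (1 at an unadjusted p under 0.05), against 0.386% of probes, and 1 with the array omitted, against 0.242%. The study's methods ask in addition that the Z-ratio reach 1.5 in absolute value and that the mean Z-score over both groups be positive. By these 3 criteria 1 probe passed between csb-1 NR and N2 NR worms, that of Y68A4A.13, against 2.42% of probes, and 3 with the array omitted, against 2.58%.

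The contrast that picked the genes, csb-1 minus N2 on vehicle, is given as a description only. Its log2 changes were -6.79 for Y68A4A.13, and 2.62 and 2.31 for the fbxa-192 probes A_12_P156745 and A_12_P156746. No N2 vehicle array was above background for A_12_P108325 or F57G4.6, which were at least 1.5-fold and 8.61-fold higher in csb-1. Comparisons with the same N2 vehicle arrays gave -7.20 and 1.57 in the double mutant, and -0.53 and 0.01 in csa-1, for Y68A4A.13 and A_12_P156745. No such value is given for F57G4.6, since it was above background on no N2 vehicle array.

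The response to NR was read within each strain. In csb-1 and N2 worms the vehicle arrays had served to choose the genes, so that these values are a description. Between NR and vehicle the log2 change of Y68A4A.13 was -0.54 in csb-1 worms, and that of A_12_P156745 of fbxa-192 was 1.40 in N2 worms. In csa-1 worms, which the choice had not used, limma called 0 of the 5 probes (1 at an unadjusted p under 0.05), where 4.87% of all probes passed. With the array omitted it called 0 (0 unadjusted), where 2.64% passed. The choice had not used the double mutant either. There Y68A4A.13 was lower on NR, with the values given above, and passed with the array omitted but not with all arrays. The probes of fbxa-192 and F57G4.6 did not pass there either way.

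For fbxa-192 and F57G4.6 the array labelled csa-1 NR replicate 4 lay nearest the csb-1 groups, and for Y68A4A.13 it lay between the double mutant NR and the csb-1 NR arrays. Of the 5 probes it fell inside the range of csb-1 NR for 2 and of csb-1 vehicle for 2, and inside the range of no other group. Its nearest group mean was csb-1 NR for 3 probes, csb-1 vehicle for 1 and double mutant NR for 1, that of Y68A4A.13. For F57G4.6, the gene that separated csb-1 from the double mutant, it had an intensity of 1072, above every other array. Its 75th percentile of intensity, 3883, was also the highest of the 32 arrays, and 65.5% of its spots were above background, so that its Z-scores and not its intensities are compared.

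The place of the genes on the chromosomes was set beside their changes. Between Y68A4A.13 and fbxa-192 on chromosome V lie 126 other genes with a probe, of which 3 rose and 3 fell between csb-1 NR and N2 NR worms (4.76%), where 5.37% of the 4844 genes on V and 5.22% of all genes passed. On the csa-1 background, 2 rose and 4 fell on vehicle (4.76%, against 3.65% of genes on V and 2.87% of all genes). On NR with the array omitted, 2 rose and 3 fell (3.97%, against 3.86% on V and 3.43% of all genes). Genes absent from the gene table could not be counted here. They include F57G4.5, F57G4.6, F57G4.7 and F57G4.9, which rose between csb-1 NR and N2 NR worms. Of the 20 genes in the table nearest to fbxa-192, limma called 0 between csb-1 NR and N2 NR worms (2 at an unadjusted p under 0.05). The F-box gene fbxa-193 among them passed between double mutant NR and csa-1 NR worms only with the array omitted (1.21, adjusted p = 0.035, limma), and F59A1.11 passed between these strains on vehicle (1.58, adjusted p = 0.025, limma).

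Of the 20 genes nearest to Y68A4A.13, 1 rose and 1 fell between csb-1 NR and N2 NR worms (5.22% of all genes passed) and between double mutant NR and csa-1 NR worms (2.19% of all genes rose and 2.66% fell), and 1 rose and 2 fell between double mutant and csa-1 worms on vehicle (2.87% of all genes passed). Y68A4A.12 and scl-25 passed in all 3 comparisons, and srh-109, above background on no double mutant vehicle array, passed on vehicle (adjusted p = 0.043, limma). Y68A4A.12, a pseudogene and the next gene with a probe, had Z-scores of -1.49 to -1.01 on the 16 double mutant and csb-1 arrays (intensities 4.6 to 12.9, none above background) and -0.89 to -0.22 on the other arrays (37.9 to 155 in intensity) apart from the array labelled csa-1 NR replicate 4, at -1.22. It was at least 3.27-fold lower in csb-1 NR than in N2 NR worms (adjusted p = 1.1e-04, limma) and at least 2.56-fold lower in double mutant than in csa-1 worms on vehicle (adjusted p = 9.1e-04, limma). scl-25, of the SCP-like secreted protein family, was higher by 1.91 ± 0.35 in csb-1 NR than in N2 NR worms (adjusted p = 0.0020, limma), and by 2.85 in double mutant than in csa-1 worms on vehicle (adjusted p = 4e-05, limma). Of 12 genes named after the clone Y68A4A, Y68A4A.12 alone passed between csb-1 NR and N2 NR worms.

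Next to csb-1 itself on X, 1 of 20 genes passed between csb-1 NR and N2 NR worms, serp-1.1, at 0.87 (adjusted p = 0.029, limma). Next to csa-1 on II, 1 of 20 passed there, F42A8.1, at -1.83 (adjusted p = 0.0027, limma). Both counts are near the share of all genes that passed, 5.22%. The genes that passed between double mutant NR and csa-1 NR worms were acox-1.6 (0.69, adjusted p = 0.021, limma) and mec-5 (0.75, adjusted p = 0.015) next to csb-1, and mel-11 (0.57, adjusted p = 0.030) next to csa-1. With the array omitted, acox-1.6 and mec-5 passed (adjusted p = 0.034 and 0.045) and mel-11 did not (0.54, adjusted p = 0.063). Over whole chromosomes the shares of genes that passed between csb-1 NR and N2 NR worms were 9.69% on X, 8.08% on II and 5.37% on V. They were 4.5% to 5.32% on I, III and IV. Between double mutant NR and csa-1 NR worms, with the array omitted, X had 3.13%, II 3.67% and V 3.86% (3.43% of all genes). There I, III and IV had more, 4.17% to 4.68%. Between these strains on vehicle, X had 2.97%, II 2.91% and V 3.65% (2.87% of all genes), and I, III and IV had 3.06% to 3.19%. The shares of all genes include array names that were not matched to the gene table and have no chromosome. Each strain carries 1 allele and whatever else came with it, and the effect of the csb-1 mutation and that of a linked or background change in these strains cannot be told apart. For F57G4.6, which the double mutant does not share, the csa-1 mutation and a background change found only in the csb-1 strain cannot be told apart either.

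**Figure D4:**
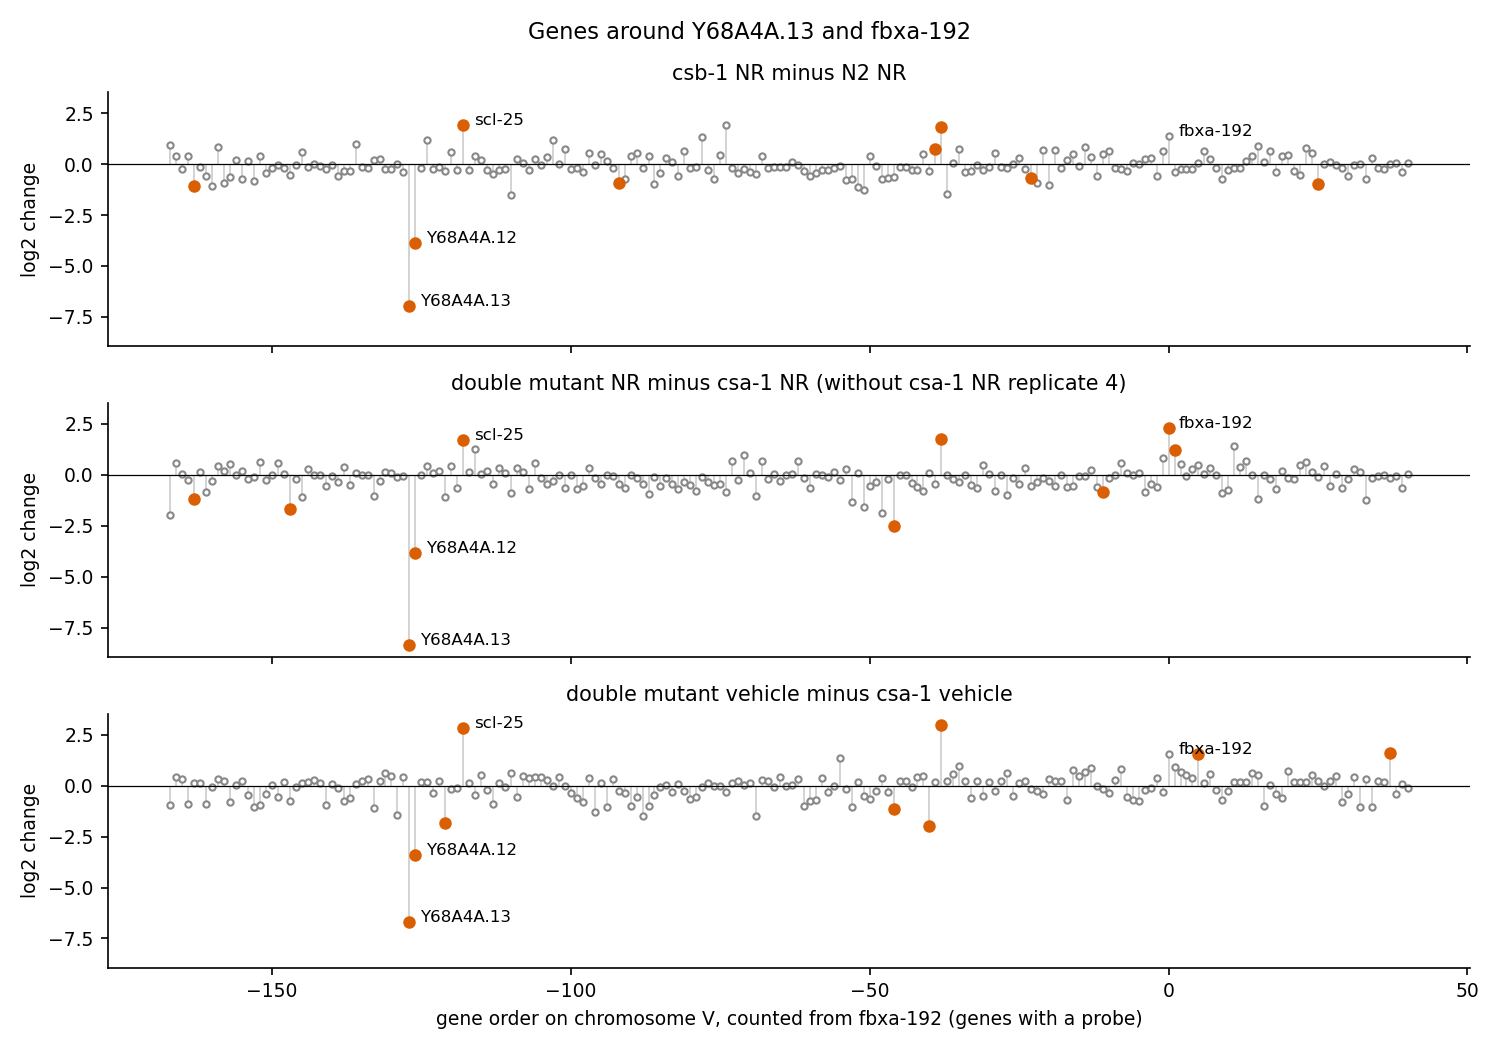
Log2 change (vertical axis) of the genes around Y68A4A.13 and fbxa-192 in their order on chromosome V, counted from fbxa-192 (horizontal axis, genes with a probe), in 3 comparisons that add the csb-1 mutation, with csa-1 NR replicate 4 omitted in the middle panel and filled points at an adjusted p (limma) of at most 0.05. Y68A4A.13 (-6.99 for csb-1 NR minus N2 NR) stands beside Y68A4A.12, while 3 of the 126 genes between it and fbxa-192 rose and 3 fell.

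Other genes named after the clone F57G4 were compared with fbxa-192 and F57G4.6. Of 6 such genes, 3 rose and 0 fell between csb-1 NR and N2 NR worms, where 3.69% of all genes rose and 1.53% fell. F57G4.7 (A_12_P132316) was higher by 1.99 ± 0.31 (adjusted p = 3.4e-04, limma) and F57G4.9 (A_12_P158070) by 1.5 ± 0.32 (adjusted p = 0.0063, limma). F57G4.5 (A_12_P158055), above background on no N2 NR array, was at least 3.54-fold higher (adjusted p = 0.006, limma). F57G4.1, F57G4.4 and F57G4.10 did not pass. F57G4.5, F57G4.7 and F57G4.9 are absent from the gene table, so their distance from fbxa-192 is not given.

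These 3 genes, like F57G4.6, were highest in csb-1 worms. F57G4.7 had Z-scores of 0.04 to 0.10 in double mutant NR, 0.43 to 0.56 in csb-1 NR, -0.12 to 0.02 on the 3 csa-1 NR arrays and -0.12 to 0.01 in N2 NR worms, with 0.57 on the array labelled csa-1 NR replicate 4. F57G4.9 had 0.05 to 0.12 in double mutant NR, 0.43 to 0.53 in csb-1 NR and 0.03 to 0.08 in N2 NR worms, with 0.54 on that array. Between double mutant NR and csb-1 NR worms F57G4.7 changed by -1.55 (adjusted p = 0.0039, limma) and F57G4.9 by -1.40 (adjusted p = 0.013, limma), and F57G4.5 was at least 4.58-fold lower (adjusted p = 3.3e-04, limma). Between double mutant and csa-1 worms on vehicle F57G4.9 had a log2 change of 0.79 (adjusted p = 0.19, and 0.0096 with the array omitted, limma). fbxa-192 did not pass between double mutant NR and csb-1 NR worms on any of its 3 probes (-0.61, -0.69 and -1.05). Whether probes of this clone or of other fbxa genes read each other's transcripts was not tested.

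**Figure D5:**
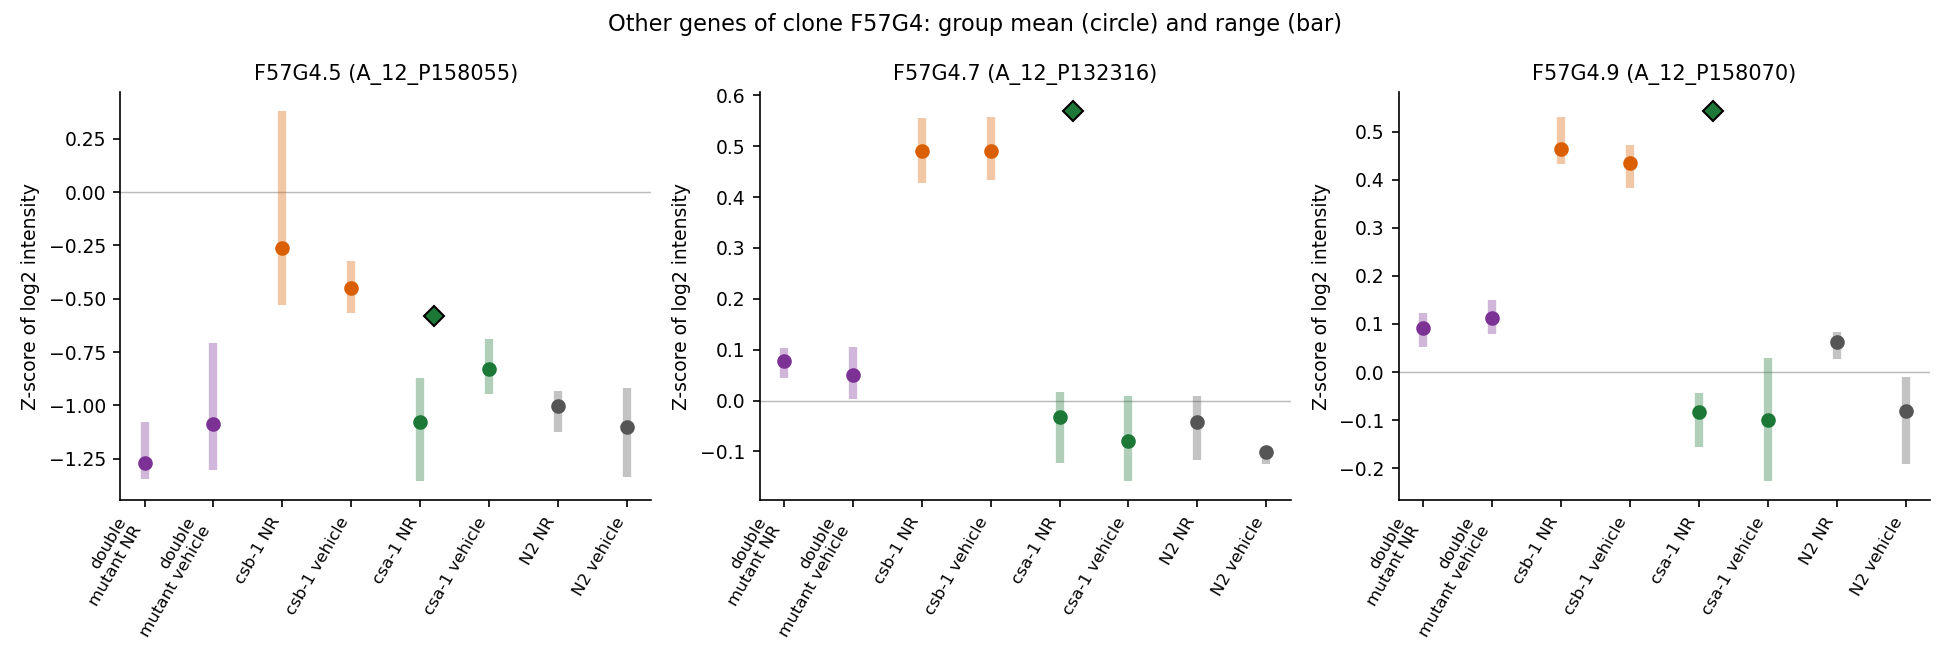
Z-score of log2 intensity (vertical axis) of F57G4.5, F57G4.7 and F57G4.9 by group, with the group mean as a circle, the range of its arrays as a bar and the array labelled csa-1 NR replicate 4 apart from its group as a diamond. F57G4.7 and F57G4.9 are highest in both csb-1 groups (means 0.49 and 0.46 on NR) and on that array (0.57 and 0.54).

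Among the wider F-box family, 15 of 211 fbxa genes rose and 4 fell between csb-1 NR and N2 NR worms (median log2 change 0.04, against -0.04 over all genes, of which 3.69% rose and 1.53% fell), with fbxa-192 left out. The largest in size were fbxa-218 (-1.56, adjusted p = 0.0059, limma), fbxa-203 (-1.25, adjusted p = 0.038), fbxa-143 (1.15, adjusted p = 0.013), fbxa-103 (1.13, adjusted p = 0.049) and fbxa-152 (1.1, adjusted p = 0.021). On the csa-1 background on NR, 1 rose and 4 fell (median -0.27, against -0.03 over all genes, of which 2.19% rose and 2.66% fell), with fbxa-131 at 1.19, fbxa-3 at -1.0 and fbxa-70 at -0.90. With the array omitted 1 rose and 4 fell, where 3.43% of all genes passed, and fbxa-131 and fbxa-70 did not pass (adjusted p = 0.088 and 0.067, limma). Between double mutant and csa-1 worms on vehicle, 2 rose and 0 fell (median 0.11, against 0.01 over all genes, of which 2.87% passed). A further list held 25 genes for SKP1-related proteins, cullins, RBX proteins and DDB1, parts of SCF and other cullin ubiquitin ligases. Of these, 3 rose and 0 fell between csb-1 NR and N2 NR worms, all of them SKP1-related (skr-14 at 1.17, skr-9 at 1.05 and skr-21 at 1.02). In the comparison of double mutant NR with csa-1 NR worms 0 rose and 5 fell (2.19% of all genes rose and 2.66% fell). With the array omitted 0 rose and 3 fell (3.43% of all genes passed). On vehicle 1 rose and 0 fell between these strains (2.87% of all genes passed), with a median of 0.02.

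The genes whose Z-scores ran most alike over the 32 arrays were taken from 15384 others, with Pearson's r as a description, since all share the same arrays and strains. The order depends on the measure, and by Spearman's rho Y68A4A.12 and fcd-2 stood 17th and 233rd among the genes most like Y68A4A.13, and bbs-5 stood 202nd among those least like F57G4.6. For Y68A4A.13 the highest were Y68A4A.12 (r = 0.95), fcd-2 (0.94), cyp-34A9 (0.89), C26F1.1 (0.88) and clec-46 (0.87), and the lowest F22B8.2 (-0.97), clc-32 (-0.91) and R07C12.1 (-0.90). fcd-2, on chromosome IV, is the worm counterpart of FANCD2, which acts in the repair of DNA crosslinks. It had 0.28 to 0.48 on the 16 double mutant and csb-1 arrays, 0.46 on the array labelled csa-1 NR replicate 4, and 0.74 to 0.89 on the other csa-1 and N2 arrays. F22B8.2, a pseudogene on V with 368 genes between it and Y68A4A.13, had the opposite pattern, with 0.21 to 0.74 on the double mutant and csb-1 arrays and at most -0.74 on the csa-1 and N2 arrays, again apart from that array, at 0.75.

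For fbxa-192 the most alike were the chemoreceptor gene srj-29 (r = 0.88), the saposin-like genes spp-9 and spp-21 (0.86 each), F22B8.2 (0.86) and the cytochrome P450 gene cyp-35D1 (0.85), and the least alike pyk-2, a pyruvate kinase (-0.88), H34I24.2 (-0.87) and gas-1, a subunit of respiratory complex I (-0.86). srj-29 and cyp-35D1 lie on V near F22B8.2, with 369 and 373 genes between them and Y68A4A.13, while spp-9 and spp-21 lie on X. For F57G4.6 they were the flavin monooxygenase gene fmo-2 (0.86), rnh-1.3 (0.85), twk-2 (0.80), Y41D4A.3 (0.78) and srz-9 (0.77), and at the other end bbs-5 (-0.88), F35F10.4 (-0.86) and cpr-8 (-0.85). fmo-2 had 0.16 to 0.19 in double mutant NR, 0.76 to 0.84 in csb-1 NR and 0.14 to 0.18 in N2 NR worms, and 0.87 on the array labelled csa-1 NR replicate 4. Among the 3 genes themselves r was -0.81 to -0.74 between Y68A4A.13 and the fbxa-192 probes, -0.52 between Y68A4A.13 and F57G4.6, and 0.69 to 0.76 between fbxa-192 and F57G4.6.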

How the data were processed

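RNA of whole worms (200 ng a sample) was labelled with Cy3 and hybridised to 1-colour Agilent C. elegans arrays, with 45220 spots of which 1417 were controls. The deposited intensity of each spot was the processed signal of Feature Extraction 11.5.1.1, background-subtracted by the authors. The deposited score of each spot differed by at most 0.005 from the Z-score computed here, the log2 intensity centred on its array's mean and divided by its SD, as in the methods. Of 43603 probes, 289 with an outlier flag were left out, and no spot was saturated. limma 3.58.1 (R 4.3.3) was fitted to all 43314 probes and 32 arrays in 8 groups, with Benjamini-Hochberg adjustment over all probes (over 26433 genes, each by its brightest probe, for gene lists and neighbours). The members and gene lists were chosen with earlier results of these data known. Named genes were the members, csa-1, csb-1, the genes most and least alike (5 and 3 a member, brightest probe), and the listed genes called on NR, up to 5 a list by size, and F59A1.11, srh-109, F57G4.1, F57G4.4 and F57G4.10 were named after their values were seen. Of 28345 array names, 20068 matched the gene table.

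The methods give 3 biological replicates a group and the labels 4, so all 4 were used. The array number limits the precision. On simulated data for csb-1 NR minus N2 NR over 43314 probes, 26% of probes changed by a log2 fold of 1 were recovered, 84% at 2 and 100% at 4 and at 6, with 7 false calls. Alternatives were scaling to the 75th percentile, quantile normalization, normexp background correction (offset 50, on median signals since mean foreground signals were not in the columns used), the deposited scores, a filter for probes above background on at least 4 arrays, 1 probe a gene, a replicate block, only the groups compared, leaving out arrays and, for likeness, Spearman's rho.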

Additional observations from a re-analysis of the deposited data

Results flagged for a closer look

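In 10 of 104 groups of 4 arrays (5 member probes and 8 probes of csa-1 and csb-1, in 8 groups each) the gap between the highest or lowest array and its nearest neighbour passed Dixon's critical value of 0.829 of the range, where chance gives about 5% of groups. The groups are not independent, since probes share arrays and several read the same gene, so the 10 cannot be set against that 5%. Of the 10, 5 were the array labelled csa-1 NR replicate 4. Its Z-score was -0.60 for Y68A4A.13 (1.44 to 1.52 on the other 3 arrays), 0.40 for fbxa-192 probe A_12_P156746 (-0.46 to -0.35), and 0.32 for F57G4.6 (-0.85 to -0.73). It was 0.21 for csa-1 probe A_12_P118898 (-0.33 to -0.26) and -1.22 for csb-1 probe A_12_P159795 (-0.05 to 0.00).

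Among the other arrays, F57G4.6 had -0.21 on csa-1 vehicle replicate 4, against -0.87 to -0.80 on the other csa-1 vehicle arrays. The fbxa-192 probe A_12_P108325 had -0.89 on double mutant vehicle replicate 1, against -0.71 to -0.67. Of the csb-1 probes that did not separate the strains, A_12_P114526 had 0.29 on csa-1 vehicle replicate 2 (0.50 to 0.53 on the others), A_12_P173537 had 0.77 on double mutant vehicle replicate 1 (0.89 to 0.90) and A_12_P173538 had 0.79 on N2 NR replicate 4 (0.76 each).

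For F57G4.6 on NR, the difference between double mutant and csb-1 worms was unlike that between csa-1 and N2 worms. The interaction was -4.28 on the log2 scale (adjusted p = 0.0026, limma), and -3.24 once the array labelled csa-1 NR replicate 4 was omitted. Only 2 of 4 N2 NR arrays were above background. The csa-1 mutation and a background change found only in the csb-1 strain cannot be told apart here.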

How the results depend on the processing

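By the adjusted p, Y68A4A.13 and F57G4.6 kept their calls and directions between csb-1 NR and N2 NR worms under every alternative run. With all 32 arrays F57G4.6 did not meet the study's 3 criteria there. Most other changes of call concerned fbxa-192. Scaling to the 75th percentile called A_12_P156745 between double mutant NR and csa-1 NR worms (1.46) and A_12_P108325 between double mutant NR and csb-1 NR worms (-1.26). Quantile normalization called A_12_P156745 (1.56) and A_12_P156746 (1.38) between double mutant NR and csa-1 NR worms, and A_12_P108325 (1.37) and A_12_P156746 (1.51) between double mutant and csa-1 worms on vehicle. Normexp correction called A_12_P156745 (0.96) and A_12_P156746 (0.86) between csb-1 NR and N2 NR worms, A_12_P156746 between double mutant NR and csa-1 NR worms (0.73), and A_12_P108325 between double mutant NR and csb-1 NR worms (-0.37) and in the interaction (-0.49). With only probes above background on at least 4 arrays, A_12_P108325 passed between double mutant and csa-1 worms on vehicle (1.39). Since this probe was above background on no csa-1 vehicle array, 1.37 and 1.39 are fitted values and no bounds. A fit to only the groups compared called A_12_P156745 (1.40) and A_12_P156746 (1.38) between csb-1 NR and N2 NR worms, A_12_P156745 between double mutant NR and N2 NR worms (0.79), and Y68A4A.13 (-1.40) and A_12_P108325 (-1.05) between double mutant NR and csb-1 NR worms, and lost Y68A4A.13 between double mutant NR and csa-1 NR worms (-6.43, adjusted p = 0.052, limma). By the adjusted p alone, 3 and not 1 of the member probes passed between csb-1 NR and N2 NR worms, and 1 and not 0 between double mutant NR and csb-1 NR worms. The cause of these changes was not tested.

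Leaving out 1 array at a time gave, between csb-1 NR and N2 NR worms, 1.35 to 1.57 for A_12_P108325 (lost without any of the 8 arrays compared, adjusted p up to 0.10, limma), 1.31 to 1.5 for A_12_P156745 and 1.26 to 1.46 for A_12_P156746. Between double mutant and csa-1 worms on vehicle it gave 1.11 to 1.64 for A_12_P108325, 1.30 to 1.94 for A_12_P156745 and 1.30 to 1.86 for A_12_P156746. All 3 passed without csa-1 vehicle replicate 3 (1.64, 1.94 and 1.86). A_12_P108325 was above background on no csa-1 vehicle array, so its fitted values there are no bound, and the bound is at least 1.25-fold. Between double mutant NR and csa-1 NR worms it gave 1.21 to 2.31 for A_12_P156745 and 1.08 to 2.15 for A_12_P156746, between csa-1 NR and N2 NR worms -1.45 to -0.38 for A_12_P156746, and between double mutant NR and csb-1 NR worms -1.48 to -1.25 for Y68A4A.13. The interaction for Y68A4A.13 lay between -1.39 and 1.26 and reversed to -1.39 once the array labelled csa-1 NR replicate 4 was omitted.

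Arrays of the same replicate number did not deviate together (mean r = 0.0088 over 112 pairs, -0.52 to 0.40, and 11 of 32 arrays correlated best with their own number), and a replicate block changed none of 35 calls (Y68A4A.13 between csb-1 NR and N2 NR worms stayed at -6.99). The deposited scores and 1 probe a gene changed none either. The mean r of the 5 most alike genes became, by Spearman's rho, 0.75 for Y68A4A.13 and 0.64 for F57G4.6.

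Precision is limited by the signal over background, above all for A_12_P108325 and for F57G4.6 outside csb-1 worms, and by 4 arrays a group, 1 slide a group and 1 strain a genotype.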
